A study of Mus musculus with 12 samples.

Results

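The early growth response factors Egr1, Egr2, Egr3 and Egr4, the orphan nuclear receptors Nr4a1, Nr4a2 and Nr4a3, the phosphatases Dusp1 and Dusp2, and Ier2 were followed through a mouse model of acute myeloid leukaemia. They were selected by gene symbol, and all 10 were found among the 24310 features of every library. RNA was sequenced from CMM cells, a GFP-marked leukaemia line that the study's title assigns to the inv(16) subtype, grown in C57BL/6 mice after intravenous engraftment. Dosing with PBS, CpG-scrODN or CpG-STAT3dODN began once GFP-positive leukaemia cells made up about 1% in blood, and 3 intravenous doses were given on alternate days. The spleen was taken 1 day after the last dose and c-Kit positive cells were enriched with a PE positive selection kit. The series text also names a GFP sort, which the extraction protocol does not list. Thus every group, the PBS group included, carried the leukaemia and went through the same selection. CpG-STAT3dODN joins a TLR9 ligand to a decoy for STAT3, and CpG-scrODN carries a scrambled sequence in its place. The labels used here do not state mouse sex or age, or how many mice stood behind a library.

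There were 4 libraries in each labelled group. Column headers named another group than the sample label did for all 12: a DEC header stood over each library labelled PBS, a PBS header over each labelled CpG-scrODN, and an SCR header over each labelled CpG-STAT3dODN. Groups are named by label throughout, and differences between them are not credited to a treatment. Estimated depth was 31410000 to 36170000 reads per library. Kit, the receptor used for selection, was at 10.5 to 51.1 RPKM (read number divided by transcript length and by the library's mapped reads) in the 12 libraries. By label it was at 10.5, 12.8, 37.8 and 22.9 in replicates 1 to 4 labelled PBS. Under CpG-scrODN it was at 28.3 to 40.5, and under CpG-STAT3dODN at 25.7 to 51.1. Of the 12 B-cell markers listed, 10 were in the files and none was at 0 throughout a group. Their summed level was 174 to 677 RPKM under the PBS label, 9.59 to 25.3 under CpG-scrODN and 22.9 to 110 under CpG-STAT3dODN. The summed level of 8 T-cell markers was 16.4 to 56.1, 2.39 to 4.76 and 2.68 to 5.75 RPKM in the same order. Lymphocyte lists were not the only ones to differ. In that order, 10 neutrophil genes summed to 1725 to 5187, 531 to 2218 and 1866 to 4184 RPKM. For 10 myeloid progenitor genes, Kit among them, the sums were 422 to 555, 225 to 284 and 306 to 464. For 7 erythroid genes they were 355 to 7963, 616 to 1386 and 350 to 3524. Megakaryocyte genes went the other way, at 185 to 381, 353 to 440 and 229 to 549. In such bulk samples, fewer cells of a type and less RNA per cell cannot be told apart. Replicate 4 labelled PBS and replicate 4 labelled CpG-STAT3dODN stood apart from the other 10 libraries, with Fos at 12.9 and 5.91 RPKM against 486 to 1156, so the main results are also given without both.

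All of these genes belong to the immediate-early response, which needs no new protein synthesis and follows within minutes when growth factor, cytokine or stress signals reach ERK and related kinases. EGR proteins are zinc-finger transcription factors whose activity is held back by the corepressors NAB1 and NAB2. NR4A proteins are nuclear receptors that act without a known physiological ligand, and loss of Nr4a1 together with Nr4a3 in mice leads to acute myeloid leukaemia. DUSP1 and DUSP2 are nuclear phosphatases that switch MAP kinases off again, and Ier2 encodes a small nuclear protein induced alongside them.

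The sequences just before the start sites are shown for the genes whose values separate most clearly below: Egr4 and Nr4a1, which passed the test in 1 comparison each, Nr4a2 and Dusp2, which followed the order of Nr4a1, Dusp1, which was lowest in the libraries of low Fos, and Egr2, which was highest in replicate 4 of each group. RefSeq windows (GRCm38.p6, the assembly mm10 denotes) were found for 7 of the 10 genes. Capitals mark matches, on either strand, to the CArG box bound by SRF, to the CREB site TGACGTCA or its core TGACG, and to the EGR site GCGNGGGCG. Each window holds the 250 bases before a start site and is written 5′ to 3′ on the gene's strand, except that Dusp1 stops 47 bases short of it, where exons of other Dusp1 transcripts begin. The windows are Egr2 at chr10:67537619-67537868 (plus strand, 1 of its 5 start sites), Egr4 at chr6:85513590-85513839 (minus), Nr4a1 at chr15:101266596-101266845 (plus), Nr4a2 at chr2:57124004-57124253 (minus), Dusp1 at chr17:26508520-26508722 (minus) and Dusp2 at chr2:127335909-127336158 (plus).
Egr2: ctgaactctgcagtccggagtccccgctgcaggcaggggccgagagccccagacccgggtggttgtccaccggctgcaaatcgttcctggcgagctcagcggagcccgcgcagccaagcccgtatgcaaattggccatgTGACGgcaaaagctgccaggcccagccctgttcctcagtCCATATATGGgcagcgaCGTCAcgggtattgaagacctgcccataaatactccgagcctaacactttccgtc
Egr4: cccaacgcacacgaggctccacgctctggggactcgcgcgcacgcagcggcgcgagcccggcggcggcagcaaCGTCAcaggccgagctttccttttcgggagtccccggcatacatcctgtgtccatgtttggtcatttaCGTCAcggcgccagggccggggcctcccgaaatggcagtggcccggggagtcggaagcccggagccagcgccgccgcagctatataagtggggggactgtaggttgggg
Nr4a1: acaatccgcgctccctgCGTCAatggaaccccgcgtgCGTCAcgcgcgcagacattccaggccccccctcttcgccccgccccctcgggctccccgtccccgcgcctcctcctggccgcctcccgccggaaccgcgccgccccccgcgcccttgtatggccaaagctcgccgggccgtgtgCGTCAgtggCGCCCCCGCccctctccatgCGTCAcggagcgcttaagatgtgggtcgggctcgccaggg
Nr4a2: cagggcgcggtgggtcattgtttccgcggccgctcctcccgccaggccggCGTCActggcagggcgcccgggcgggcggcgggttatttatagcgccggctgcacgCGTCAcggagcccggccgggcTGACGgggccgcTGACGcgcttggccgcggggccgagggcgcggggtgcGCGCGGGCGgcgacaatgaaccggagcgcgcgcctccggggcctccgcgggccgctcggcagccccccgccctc
Dusp1: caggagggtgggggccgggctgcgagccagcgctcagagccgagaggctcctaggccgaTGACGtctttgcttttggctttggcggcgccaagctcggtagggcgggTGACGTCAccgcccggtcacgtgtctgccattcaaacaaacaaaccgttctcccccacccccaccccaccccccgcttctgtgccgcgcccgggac
Dusp2: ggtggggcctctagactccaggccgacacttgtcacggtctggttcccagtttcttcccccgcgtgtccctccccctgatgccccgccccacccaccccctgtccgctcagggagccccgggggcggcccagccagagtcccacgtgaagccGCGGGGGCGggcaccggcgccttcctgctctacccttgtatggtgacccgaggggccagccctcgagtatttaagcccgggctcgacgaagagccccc

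The core TGACG was found 2 times in the Egr2 window, 2 times in Egr4, 4 times each in Nr4a1 and Nr4a2 and 3 times in the Dusp1 window, where 2 of the matches, on opposite strands, lie within the 1 TGACGTCA that begins 143 bases before the start. The Dusp2 window held none. Over 32817 RefSeq windows of this length, 17.7% held TGACG and 1.55% held TGACGTCA. The CArG box of the Egr2 window begins 72 bases before the start, and 1.47% of windows held such a box. The matches depend on the Egr2 start site shown. At 1 other start site the window held no match to any site searched, and another held the CArG box but no TGACG. The EGR site was matched at 60 bases before the start in Nr4a1, 74 in Nr4a2 and 98 in Dusp2, against 4.7% of windows. The site of NR4A monomers, AAAGGTCA, was not matched in any window of these 7 genes and was present in 1.34% of windows. These are matches of letters only, and binding was not measured.

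Per transcript length, the genes spanned a wide range of levels. Ier2 had the highest median over the 12 libraries, 129 RPKM, followed by Egr1 at 81.3 and Dusp1 at 78.1. The ranges of these 3 overlapped, at 49.8 to 261, 14.8 to 280 and 5.96 to 148 RPKM. Dusp2 and Nr4a1 followed with medians of 28.3 and 11.7, then Nr4a2 at 2.45. Egr2 and Egr4 had medians of 0.783 and 0.754 RPKM, and Egr3 and Nr4a3 of 0.154 and 0.047. The last pair was below 1 RPKM in all libraries except replicate 4 labelled PBS and did not pass the filter on low values, which asked for 4 or more libraries with an RPKM of 1 or above. The other 8 genes were tested. Egr2 passed the filter with exactly 4 libraries at 1 RPKM or more, and Egr4 passed through its 4 libraries labelled CpG-scrODN and 1 other.

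**Figure D1:**
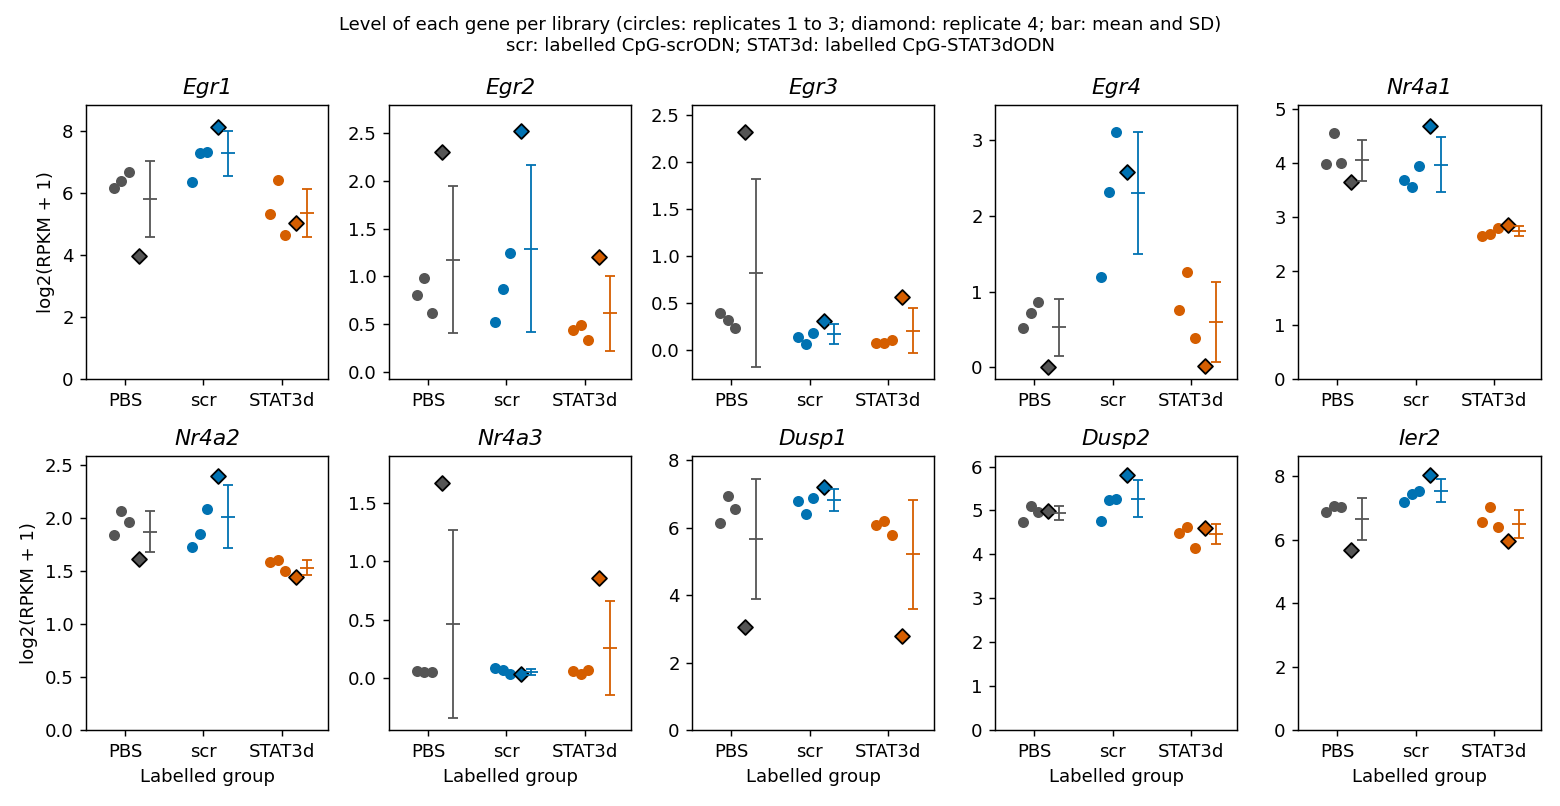
Level of each of the 10 genes as log2(RPKM + 1) on the vertical axis, by labelled group on the horizontal axis; circles are replicates 1 to 3, diamonds replicate 4, and bars the mean and SD of 4 libraries. Nr4a1, Nr4a2 and Dusp2 lie lowest in all 4 libraries labelled CpG-STAT3dODN, while Egr3 and Nr4a3 are highest in replicate 4 labelled PBS.

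Nr4a1, Nr4a2 and Dusp2 shared an order of the groups: every library labelled CpG-STAT3dODN lay below every other library. Nr4a1 lies at chromosome 15, 101253902 to 101274795 (mm10, as are all positions here), and was at 14.7, 22.5, 14.9 and 11.6 RPKM in replicates 1 to 4 labelled PBS. In the libraries labelled CpG-scrODN it was at 11.8, 10.7, 14.3 and 24.7 RPKM. In those labelled CpG-STAT3dODN it was at 5.24, 5.45, 5.92 and 6.17 RPKM, with no overlap with the other 8 libraries. Its means were 15.9 ± 4.62, 15.4 ± 6.39 and 5.7 ± 0.422 RPKM (SD, n = 4 each).

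Nr4a2, a close relative of Nr4a1 at chromosome 2, 57106830 to 57124003, was at 2.59, 3.2, 2.92 and 2.07 RPKM in the PBS-labelled libraries and at 2.31, 2.61, 3.26 and 4.26 in those labelled CpG-scrODN. It was at 2, 2.04, 1.83 and 1.73 RPKM in those labelled CpG-STAT3dODN. The gap was narrow, since the highest of these, 2.04, was next to 2.07 in replicate 4 labelled PBS. Dusp2, at chromosome 2, 127336159 to 127338377, was at 25.5, 33.1, 30.3 and 30.5 RPKM in the libraries labelled PBS. In those labelled CpG-scrODN it was at 26.2, 36.6, 37.4 and 54.9 RPKM, and in those labelled CpG-STAT3dODN at 21.5, 23.6, 16.6 and 23.3. These 3 genes made up 3 of the 8 genes, 0.0735% of 10886 tested, in which all libraries labelled CpG-STAT3dODN lay below the other 8. The others were Ankrd37, Hist1h2ai, Klf2, Nfkbiz and Tmem135, and all 8 are named after their values were seen. Klf2, an immediate-early Krüppel-like factor, had 18.2 as the highest RPKM in libraries labelled CpG-STAT3dODN and 19.4 as the lowest elsewhere.

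Egr4 and Ier2 separated the libraries labelled CpG-scrODN from those labelled PBS. Egr4, at chromosome 6, 85511121 to 85513589, was at 0.44, 0.648, 0.815 and 0 RPKM in the libraries labelled PBS. It was at 1.3, 3.98, 7.64 and 5 RPKM in those labelled CpG-scrODN, and at 0.693, 1.39, 0.306 and 0.0136 in those labelled CpG-STAT3dODN. The libraries labelled CpG-scrODN did not overlap with those labelled PBS, and overlapped with those labelled CpG-STAT3dODN through replicate 1 of the former and replicate 2 of the latter. By its single annotated transcript of 2148 bases, the lowest value above 0 stands for about 1.02 reads and the highest for about 588. The 0 in replicate 4 labelled PBS allows up to 0.0445 RPKM, the level of 3 reads, for counting error only.

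Ier2, at chromosome 8, 84661331 to 84662852, was at 116, 132, 129 and 49.8 RPKM in the PBS-labelled libraries and at 144, 174, 184 and 261 in those labelled CpG-scrODN. In those labelled CpG-STAT3dODN it was at 92.5, 130, 84.4 and 61.3 RPKM. All 4 libraries labelled CpG-scrODN were above the other 8, where 0.266% of all tested genes had that order. Egr1, at chromosome 18, 34861207 to 34864956, is the best studied of the EGR factors and ranged from 14.8 to 280 RPKM. It was at 71, 82.2, 100 and 14.8 RPKM in the PBS-labelled libraries and at 80.4, 154, 159 and 280 in those labelled CpG-scrODN. In those labelled CpG-STAT3dODN it was at 38.5, 84.8, 23.9 and 31.7 RPKM, and the groups overlapped.

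Dusp1, at chromosome 17, 26505591 to 26508472, was at 69.2, 121, 93 and 7.32 RPKM in the PBS-labelled libraries, and at 110, 83.7, 117 and 148 in those labelled CpG-scrODN. In those labelled CpG-STAT3dODN it was at 66.2, 72.6, 54.6 and 5.96 RPKM. The 2 libraries of low Fos were the lowest of all 12. Exons of Ergic1, a gene on the other strand, overlap exons of Dusp1, and whether reads were counted by strand is not stated, so reads of these exons may come from either gene. Replicate 4 labelled CpG-scrODN held the highest value of 7 of the 10 genes, Egr1, Egr2, Nr4a1, Nr4a2, Dusp1, Dusp2 and Ier2, where 6.15% of all tested genes had their highest value in it.

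The remaining genes were low in most libraries. Egr2, a regulator of macrophage and lymphocyte differentiation at chromosome 10, 67534469 to 67542188, was at 0.74, 0.974, 0.527 and 3.94 RPKM under the PBS label, 0.432, 0.826, 1.37 and 4.75 in those labelled CpG-scrODN, and 0.351, 0.399, 0.256 and 1.29 in those labelled CpG-STAT3dODN. Replicate 4 was the highest of each group. Egr3, at chromosome 14, 70077317 to 70082613, was at 0.317, 0.249, 0.177 and 3.98 RPKM in the libraries labelled PBS. It was at 0.0421 to 0.238 RPKM in those labelled CpG-scrODN and at 0.0519, 0.0549, 0.0729 and 0.478 in those labelled CpG-STAT3dODN. Nr4a3, at chromosome 4, 48045078 to 48086447, was at 0.0396 to 0.0464 RPKM in replicates 1 to 3 labelled PBS and at 2.17 in replicate 4. It was at 0.0248 to 0.0614 RPKM in the libraries labelled CpG-scrODN, and at 0.0477, 0.0295, 0.0521 and 0.812 in those labelled CpG-STAT3dODN. Egr3 and Nr4a3 thus had their 2 highest values in the same 2 libraries.

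Those 2 libraries divided the families. Dusp1, Egr4 and Ier2 were lower in both than in each of the other 10 libraries, whereas Egr3 and Nr4a3 were higher in both. Egr1 was at 14.8 and 31.7 RPKM there, and 1 other library, at 23.9, lay between. Nr4a1 was at 11.6 and 6.17 RPKM in them, and Dusp2 at 30.5 and 23.3. In shares, 3 of 10 genes lower and 2 of 10 higher stood beside 18.8% and 23.4% of all tested genes, so the split is described gene by gene and not as a property of the set. Of 8 AP-1 genes, 5 were lower in both (Fos, Fosb, Jun, Junb and Jund) and 2 higher (Fosl1 and Fosl2). Fos is the gene by which these 2 libraries were set apart, so its place among the 5 was fixed in advance. Fosb was at 1.5 and 0.924 RPKM against 156 to 405 elsewhere, and Jun at 14 and 8.68 against 262 to 580. Junb was at 92.1 and 95.3 RPKM against 101 to 340, and Fosl2 at 5.42 and 4.83 against 2.44 to 4.06.

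In the same 2 libraries the EGR corepressors Nab1 and Nab2 were both higher, while relatives of the DUSP genes were divided. Nab1 was at 21 RPKM in both libraries and at 6.11 to 10.7 in the other 10. Nab2, itself an EGR target, was at 15.5 and 13.8 RPKM against 2.46 to 8.4. The ERK phosphatases Dusp4 and Dusp5 were higher in both as well, Dusp4 at 13.5 and 2.52 RPKM against 0.0773 to 0.938, and Dusp5 at 10.6 and 8.54 against 0.758 to 5.14. Dusp6, another ERK phosphatase, was lower in both, at 3.64 and 3.39 RPKM against 6.6 to 13.1. Of 11 listed ERK feedback inhibitors, these phosphatases among them, 2 (18.2%) were lower in both and 5 (45.5%) higher. Of 34 further immediate-early genes, 6 (17.6%) were lower in both and 3 (8.82%) higher. Both lists stood beside 18.8% and 23.4% of all tested genes. Srf, the factor that binds CArG boxes, was at 8.97 and 9.11 RPKM against 17.9 to 23.6, while the ERK kinase Mapk3 lay at 28.3 to 36.1 RPKM over all 12. Mapk3 does not stand for its list. Of 15 listed ERK and SRF inputs, 3 (20%), Srf among them, were lower in both and 5 (33.3%) higher. Those shares were 18.8% and 23.4% over all tested genes. Fosb, Junb, Jund, Fosl1, Fosl2, Dusp4, Dusp5 and Dusp6 were picked from the pathway lists after their values were seen. In the same 2 libraries the summed B-cell markers were at 677 and 110 RPKM, the highest of each group. There 9 heat-shock genes summed to 1085 and 1411 RPKM, against 1504 to 5759 in the other 10. The 1504 was in replicate 4 labelled CpG-scrODN, where Hspa1b was at 8.28 RPKM, against 10.4 and 13.2 in the 2 libraries. Gene by gene, 2 of the 9 (22.2%) were lower in both and 0 higher, beside 18.8% and 23.4% of all tested genes. The part of B-cell and heat-shock RNA in the division was not tested.

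**Figure D2:**
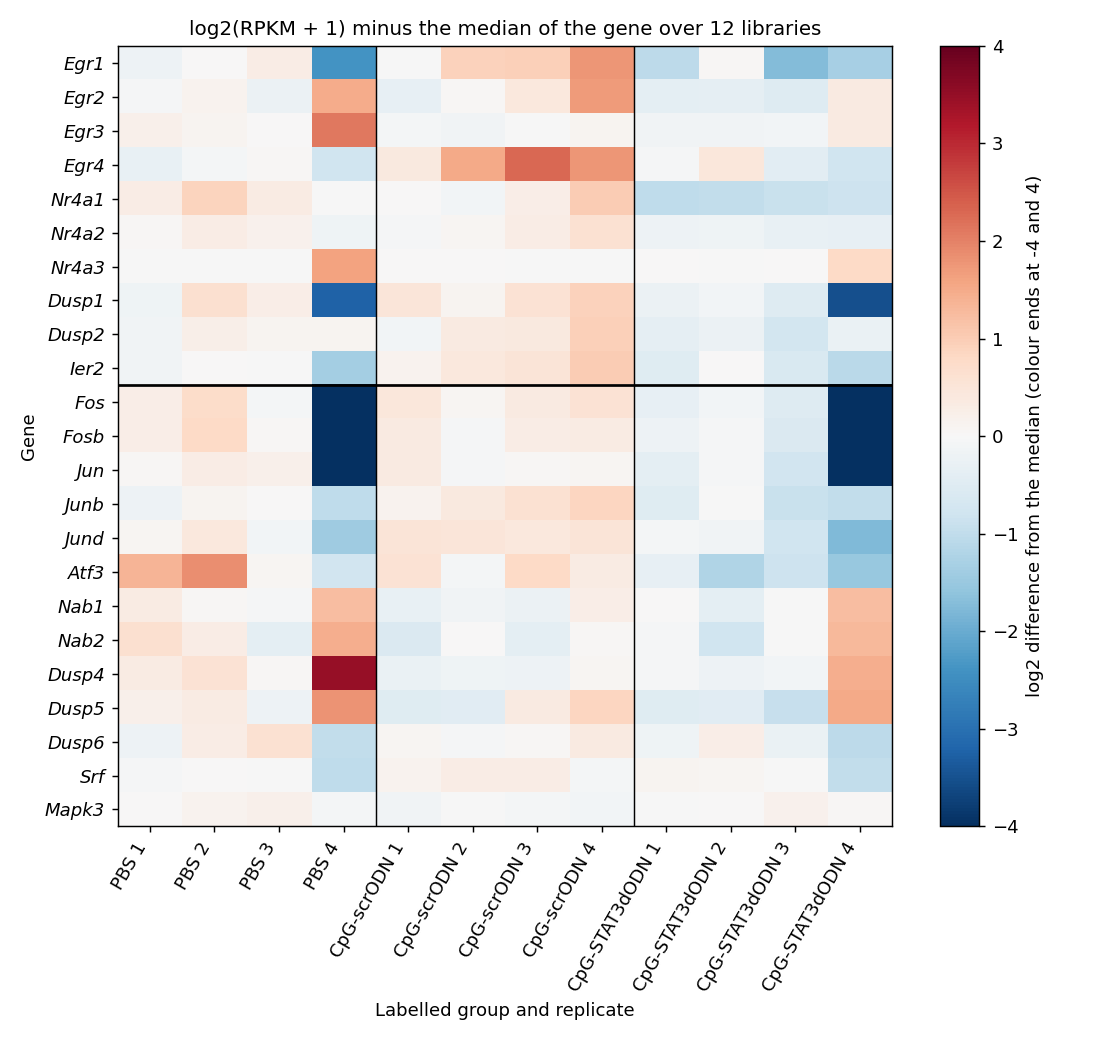
Each row is a gene and each column a library; colour is log2(RPKM + 1) minus the gene's median over 12 libraries, on a scale that ends at -4 and 4. Replicate 4 labelled PBS and replicate 4 labelled CpG-STAT3dODN show Dusp1, Fos, Fosb and Jun low and Egr3, Nr4a3, Nab1, Nab2, Dusp4 and Dusp5 high, while Mapk3 is even.

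Between the libraries labelled CpG-scrODN and those labelled PBS, which by label ask what the control oligonucleotide changed, 1 of the 8 tested genes passed: Egr4, higher by 1.78 ± 0.38 on the log2(RPKM + 1) scale (SE, limma adjusted p = 0.0199). This scale is used for all differences and understates the change of low genes. Egr4 passed the filter on low values through its 4 libraries labelled CpG-scrODN and 1 other, so it was tested because it was high there. Without the filter its limma adjusted p was 0.0380. Limma called 4.15% of 10886 genes in this comparison, 12 higher (0.110%) and 440 lower, and with quantile normalization 75 higher and 318 lower. With libraries weighted by quality the split was 730 higher and 1082 lower. Unadjusted p was under 0.05 for 3 of the 8 genes and for 15.6% of all. The groups did not overlap for Egr4 and Ier2, in a direction where 3.83% of all genes did not overlap. Ier2 differed by 0.90 (95% interval 0.21 to 1.59, limma adjusted p = 0.177) and Egr1 by 1.47 (0.20 to 2.75, limma adjusted p = 0.242). For Nr4a1 the difference was -0.08 with an interval of -0.59 to 0.43, and for Nr4a2 it was 0.14, with an interval of -0.18 to 0.46. Dusp1, Dusp2 and Egr2 differed by 1.15, 0.33 and 0.12. The median of the 8 was 0.61, beside -0.05 over all genes, and 0.15 without all 3 libraries numbered 4, beside -0.02. Without the 2 libraries of low Fos the differences of Dusp1, Egr1 and Ier2 were 0.28, 0.87 and 0.57. The call of Egr4 was kept without both (difference 1.60, limma adjusted p = 0.0329). It was lost on leaving out any 1 of 5 libraries, PBS-labelled replicates 1 and 4 and CpG-scrODN-labelled replicates 2, 3 and 4, with limma adjusted p of 0.0503 to 0.0674, and with a pseudocount of 0.1 (difference 3.14, adjusted p = 0.0773).

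Between the libraries labelled CpG-STAT3dODN and those labelled PBS, by label the effect of the decoy oligonucleotide, Nr4a1 was the 1 of 8 that passed. It was lower in the libraries labelled CpG-STAT3dODN, with a difference of -1.3 ± 0.23 (SE, limma adjusted p = 0.0132), where limma called 1.86% of genes, 3 higher and 199 lower (1.83%). With libraries weighted by quality it called 651 higher and 597 lower. Unadjusted p was under 0.05 for 3 of the 8 genes, beside 9.40% of all. Dusp2 and Nr4a2 differed by -0.48 (95% interval -0.89 to -0.07, limma adjusted p = 0.386) and -0.34 (-0.66 to -0.02, limma adjusted p = 0.466). Their groups, like those of Nr4a1, did not overlap, as was so for 4.23% of genes in that direction. Egr1, Egr2, Dusp1 and Ier2 differed by -0.45, -0.56, -0.45 and -0.16, and Egr4 by 0.08. Dusp1 ran from -1.32 without replicate 4 labelled PBS to 0.35 without replicate 4 labelled CpG-STAT3dODN. The median of the 8 was -0.45, beside -0.01 over all genes, and -0.46 without both libraries of low Fos, also beside -0.01. Without both libraries of low Fos the difference of Nr4a1 was -1.46 (limma adjusted p = 0.0124). Its call was lost without replicate 2 labelled CpG-STAT3dODN (difference -1.28, limma adjusted p = 0.0509).

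The summed B-cell markers differed along with Nr4a1 in this comparison. All 9 tested B-cell markers were lower under CpG-scrODN than under PBS, and 8 of 9 under CpG-STAT3dODN (limma adjusted p under 0.05). Of all tested genes, 4.04% and 1.83% were called lower. Without both libraries of low Fos it was 9 of 9 in each, beside 575 and 295 of all 10886 genes. Pax5, Ebf1 and Fcer2a reached 1 RPKM in all 4 PBS-labelled libraries and in none labelled CpG-scrODN. They were thus tested because they were high under the PBS label. The part of B-cell RNA in the difference of Nr4a1, or of any other gene here, was not tested.

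Set against each other, the CpG-STAT3dODN-labelled and CpG-scrODN-labelled libraries, which by label compare the decoy with its control, gave 0 limma calls among 10886 genes and so 0 among the 8. The lowest adjusted p was 0.96, and 295 genes, 2.71%, were under an unadjusted p of 0.05. In this comparison 6 of the 8 genes were among them, all lower in the libraries labelled CpG-STAT3dODN. The differences and unadjusted limma p were -1.22 and 0.000243 for Nr4a1, -1.70 and 0.000812 for Egr4, and -0.80 and 0.00118 for Dusp2. They were -1.06 and 0.00596 for Ier2, -0.48 and 0.00654 for Nr4a2, and -1.92 and 0.00672 for Egr1. Dusp1 and Egr2 differed by -1.61 (95% interval -3.51 to 0.30) and -0.68 (-1.66 to 0.30), and Dusp1 by -0.80 without the 2 libraries of low Fos. The groups did not overlap for 5 of the 8, Nr4a1, Nr4a2, Dusp1, Dusp2 and Ier2, in a direction where 0.873% of all genes did not overlap. The median of the 8 was -1.14, beside 0.03 over all genes, and -0.88 without the 2 libraries of low Fos, where all 8, and 570 of the 10886 genes, were under an unadjusted p of 0.05. With libraries weighted by quality, limma called 607 genes and 6 of these 8, all but Egr2 and Dusp1. This comparison and the 2 before it share groups pairwise, so they are not independent of each other.

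**Figure D3:**
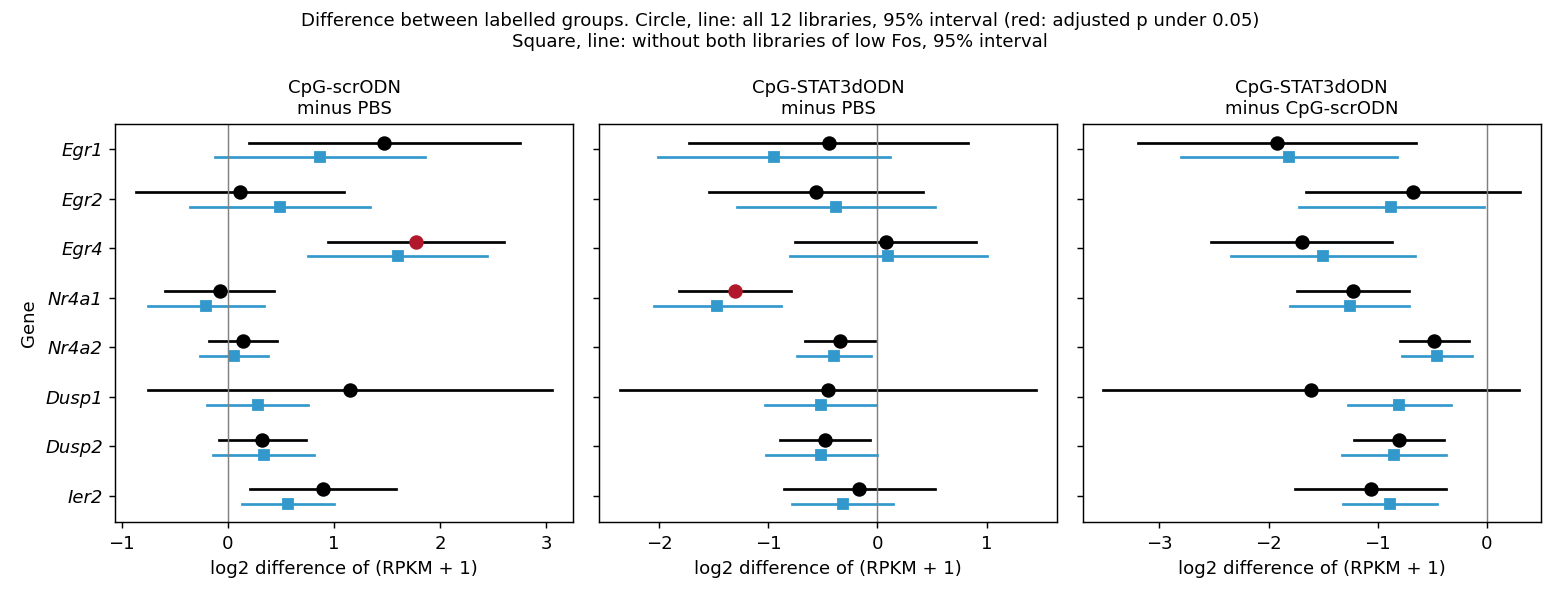
Difference between labelled groups on the log2(RPKM + 1) scale (horizontal axis) for the 8 tested genes (vertical axis), with 95% intervals, for all 12 libraries (circles) and without both libraries of low Fos (squares). Egr4 in the first panel and Nr4a1 in the second are the calls at adjusted p under 0.05, and all 8 circles lie below 0 in the third.

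Other genes of the pathway were taken from 5 lists of AP-1 factors, ERK and SRF inputs, EGR corepressors, ERK feedback inhibitors and further immediate-early genes. Of 70 listed genes 65 were tested. Between the libraries labelled CpG-scrODN and PBS, 0 were higher and 6 lower, beside 4.04% of all genes as lower, with a median of -0.08 over the 65. Plk2, a polo-like kinase, was at 2.79 ± 0.452 RPKM under the PBS label and 0.372 ± 0.0919 under CpG-scrODN (SD, n = 4), and fell by 1.46. It passed the filter on low values through the 4 PBS-labelled libraries alone, and Dusp10 through those 4 and 1 other, so both were tested because they were high there. Sik1, a salt-inducible kinase, fell by 0.83, and the phosphatases Dusp7 and Dusp10 by 0.82 and 0.75. Klf4, a Krüppel-like factor of monocytes, fell by 0.96, and Trib1, a pseudokinase that promotes C/EBPα breakdown, by 0.83. Without both libraries of low Fos these 6 kept their calls and 7 genes were called in all, each lower, with a median of -0.07. Of all 10886 genes, 575 were lower in that setting. Between the libraries labelled CpG-STAT3dODN and PBS, 0 were higher and 2 lower, beside 1.83% of all genes as lower, with a median of -0.26. These were Plk2, at 0.447 ± 0.152 RPKM, and Sik1, at 3.87 ± 0.864 RPKM against 10.9 ± 2.61 (SD, n = 4). Without both libraries of low Fos 8 were lower, beside 295 of all genes, with a median of -0.28: Plk2, Sik1, Dusp7, Dusp10, Atf3, Klf2, Csrnp1 and Plk3. Between the libraries labelled CpG-STAT3dODN and those labelled CpG-scrODN, limma called 0 of the 65. Of these, 15 were under an unadjusted p of 0.05, beside 2.71% of all genes, and the median was -0.03. The B-cell markers were lower in the same 2 comparisons, and their part in these calls was not tested.

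Mapk3, Srf, Nab1, Nab2, Fos and Jun did not pass in any comparison. Mapk3 was at 33 ± 2.92, 29.5 ± 1.27 and 32.7 ± 1.82 RPKM (SD, n = 4) under the PBS, CpG-scrODN and CpG-STAT3dODN labels. In the same order Srf was at 16.4 ± 4.97, 21.6 ± 2.7 and 17.2 ± 5.45 RPKM. Nab1 was at 12.1 ± 6.06, 7.89 ± 1.72 and 11 ± 6.78 RPKM, and Nab2 at 8.51 ± 5.07, 4.25 ± 1.12 and 6.5 ± 5.02. Fos and Jun differed between the 2 oligonucleotide labels by -2.27 (95% interval -5.70 to 1.16) and -1.79 (-4.64 to 1.06).

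The mean of the standardised values of the 8 tested genes was highest in replicate 4 labelled CpG-scrODN, at 1.69 SD, and lowest in replicate 4 labelled CpG-STAT3dODN, at -1.04. The genes whose log2 values followed this mean most closely over the 12 libraries were Tnfaip3, an inhibitor of NF-kB signalling, at a Pearson correlation of 0.955, and Junb at 0.939. After them came Hist1h2ao at 0.9, Hist1h1d at 0.897, Vamp2 at 0.895, Hist1h3i at 0.866, Plk3 at 0.849 and Ier5 at 0.848. Tnfaip3 was at 40.6, 57.9, 63.3 and 24.9 RPKM in the libraries labelled PBS, at 74.4, 73.4, 106 and 161 in those labelled CpG-scrODN, and at 38.9, 47.8, 22.1 and 23.4 in those labelled CpG-STAT3dODN. Without the 2 libraries of low Fos the correlation was 0.946 for Tnfaip3 and 0.949 for Junb. These points share their libraries and depth, and the histone genes are close copies that may share reads.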

How the data were processed

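Deposited values were RPKM per gene, as the word in the authors' file names states. The submitters' processing notes name mm10, TopHat 1.3.1 and Partek 6.12.0713, with no role given. The sources used here do not give the annotation or filters. Values were used as deposited, and groups were taken from the sample labels. Depth came from the RPKM that 1 read is worth in low single-transcript genes (GENCODE M21): 61.9% to 66.3% of these values were whole reads within 0.05, too few for a count test. Values were analysed as log2(RPKM + 1) for genes with RPKM of at least 1 in at least 4 libraries. One limma 3.58.1 model (R 4.3.3, intensity trend) held the 3 groups, with Benjamini-Hochberg adjustment over 10886 genes, two-sided, and a call at adjusted p under 0.05. Nothing in the labels says that a library is 1 mouse, so p-values measure only how these samples vary, and that variation may be technical. The fit was tested on simulated data. Members and lists were chosen with earlier results of these data known. Named genes were all members, called pathway genes, Fos, Jun, Nab1, Nab2, Mapk3, Srf, and the 8 genes most like the members' mean; 1 further gene of that rule is not reported here. Alternatives covered pseudocount, filter, scaling, weights, replicate block and left-out libraries.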

Additional observations from a re-analysis of the deposited data

Results flagged for a closer look

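Of 30 sets of 4 libraries examined (10 genes in 3 groups), 6 held a library far from the other 3. The rule would mark about 1 in 20 sets if they were independent and normally distributed. Raw RPKM of low genes need not be, and all 6 were 3 genes in the 2 libraries of low Fos. The count is therefore not set against chance. In replicate 4 labelled PBS, Egr2 was at 3.94 RPKM against 0.527 to 0.974 in the other 3, Egr3 at 3.98 against 0.177 to 0.317, and Nr4a3 at 2.17 against 0.0396 to 0.0464. In replicate 4 labelled CpG-STAT3dODN, Egr2 was at 1.29 RPKM against 0.256 to 0.399, Egr3 at 0.478 against 0.0519 to 0.0729, and Nr4a3 at 0.812 against 0.0295 to 0.0521. The same rule marked no library for the other 7 genes.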

How the results depend on the processing

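Over 24 differences (8 genes in 3 comparisons), 493 of 519 values under other settings kept their direction and their side of the threshold. That count does not measure stability. Most of the 24 were not called in the main fit, so keeping their side mostly meant staying uncalled. Some settings could not move a difference: another filter, 2 groups only, the replicate block, or leaving out a library of the group not compared. The calls for CpG-scrODN against PBS numbered 452 genes and 1 member. They were 163 and 0 with an RPKM floor of 5, 1812 and 2 with library quality weights (whose iteration stopped before it converged), and 0 members with a pseudocount of 0.1. The floor left 5 members to test and removed Egr4 beforehand, so the 0 there is not a lost call of Egr4. Without both libraries of low Fos 686 genes were called, and without all 3 numbered 4 there were 0 members called. These 2 settings were chosen after seeing the data. Leaving out 1 library gave 279 (without CpG-scrODN replicate 3) to 560 genes and 0 to 1 members. The calls for CpG-STAT3dODN against PBS numbered 202 genes and 1 member. They were 76 with the floor, 1248 with weights, 78 with 2 groups only, 337 without both libraries of low Fos, 392 without all 3 numbered 4, and 121 to 218 genes and 0 to 1 members on leaving out 1 library (121 without CpG-STAT3dODN replicate 2, 131 without PBS replicate 1). For CpG-STAT3dODN against CpG-scrODN, 0 genes became 607 (6 members) with weights and 1 with 2 groups only. The cause was not tested.

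The differences that turned sign were the following. On leaving out 1 library they ran, for CpG-scrODN against PBS, from -0.30 to 0.49 for Egr2 and from -0.319 to 0.0908 for Nr4a1, and for CpG-STAT3dODN against PBS from -0.14 to 0.27 for Egr4, from -1.32 to 0.35 for Dusp1 and from -0.493 to 0.0111 for Ier2. Nr4a2 for CpG-scrODN against PBS turned to -0.0716 without all 3 numbered 4. With the replicate block the counts were 523, 213 and 0 genes, and the calls of members did not change. The labels give only a shared number: deviations of same-numbered libraries correlated at -0.34 to 0.82 over 12 pairs. Egr3 and Nr4a3, tested without the filter, did not pass, with differences of -0.65 and -0.40 for CpG-scrODN against PBS. Depth limits the low genes: 1.02 reads stand behind the lowest Egr4 value above 0.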
